A study of Mus musculus with 6 samples.

Results

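Glypicans and syndecans are the cell surface proteoglycans that carry heparan sulphate, a long sulphated sugar chain. The 9 genes described here, Gpc1, Gpc2, Gpc3, Gpc4, Gpc6, Sdc1, Sdc2, Sdc3 and Sdc4, were taken by symbol from a count table of 52997 gene symbols, and all 9 were found. Their messenger RNA was measured in sorted mesenchymal stromal cells, which lay down connective tissue, of 8-week-old C57BL/6 mice with no treatment named. The cells came from hindlimb skeletal muscle (3 libraries) or from a pool of cervical, brachial, axillary and inguinal lymph nodes (3 libraries), with 1000 sorted cells a library. The column names of the lymph node libraries carry the abbreviation FAPS, which the labels do not spell out. The submitters call the libraries of a group biological replicates, but 2 muscle samples have the same number in their titles (2a and 2b), and p-values measure the spread between libraries, which may be partly technical. The libraries are called muscle 2, 3 and 4 and lymph node 1, 2 and 3, as the columns number them.

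A glypican is tied to the outer face of the membrane by a lipid anchor, and its chains sit close to the membrane. A syndecan crosses the membrane, holds its chains farther out, and ends in a short cytoplasmic tail that binds scaffold and actin-linked proteins. The chains hold growth factors, chemokines and matrix proteins at the surface of fibroblasts and present them to their receptors. Enzymes in the Golgi build and sulphate the chains, and extracellular enzymes trim them or release the whole protein.

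Total gene counts ran from 415460 to 1844874 in muscle and from 1851940 to 2397134 in lymph node libraries, with muscle 4 the shallowest. Muscle 4 also stood apart from its group: the correlation of its log2 CPM (counts per 1000000 scaled counts of a library) with muscle 2 and 3 was 0.705 and 0.702 across genes, while muscle 2 and 3 had 0.952 with each other. Its summed B cell markers reached 2016 CPM, against 32.2 and 45.3 CPM in muscle 2 and 3 and 17.7 to 261 CPM in lymph node libraries. Its erythroid markers summed to 626 CPM, against 7.91 to 13.1 CPM in the other 5 libraries. All 12 stromal markers were detected in every library, with sums of 35238 to 45777 CPM in muscle and 47973 to 58390 CPM in lymph node libraries. Immediate early genes, which respond within minutes to stimulation or handling, summed to 3062 to 3725 CPM in muscle and 21578 to 23053 CPM in lymph node libraries, and 14 of the 18 tested were lower in muscle by edgeR. The part of these differences in the results on proteoglycan genes was not tested, and results on each of the 9 genes are given with and without muscle 4.

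Of the 9 genes, 6 had enough counts to be tested, and 1 of them, Gpc4, was called higher in muscle at an adjusted p under 0.05 (edgeR quasi-likelihood test), while none was called lower. Over all 10823 tested genes 4.32% were called, and 1 call among 6 genes says little against that share. Without muscle 4, 8 of the 9 genes were tested and 3 were called, Gpc4, Sdc2 and Sdc3, all higher in muscle, where 12.4% of all tested genes were called. Sdc3 passed the low-count filter there only through the muscle libraries, where it was high, so its call is no separate support. In sorted bulk samples of this kind, fewer cells expressing a gene and less RNA per cell cannot be told apart.

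**Figure D1:**
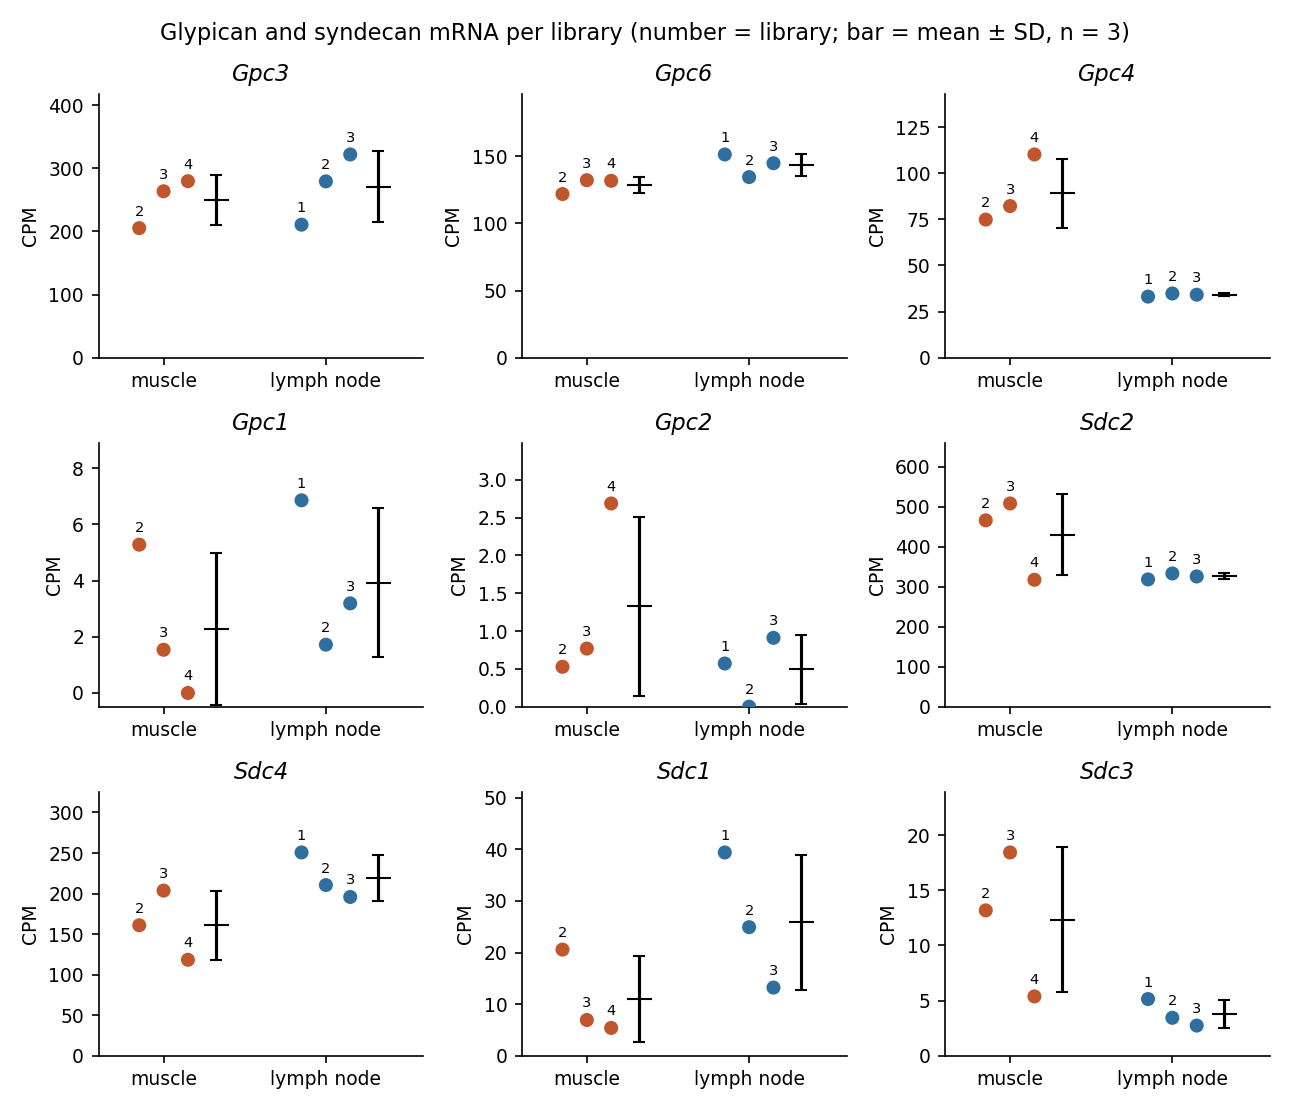
CPM, scaled by TMM, of each glypican and syndecan gene in each library. Points carry the library number and the bar gives the mean ± SD of 3 libraries. Gpc4 separates the tissues (74.9 to 110.2 CPM in muscle, 33.1 to 34.8 CPM in lymph node), while muscle 4 lies at lymph node level for Sdc2.

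Gpc4 was higher in muscle and was the one glypican called among the 3 tested. It encodes a glypican best known as a signal that astrocytes release to promote synapse formation and as a modulator of WNT and growth factor signalling. Muscle libraries 2, 3 and 4 had 142, 107 and 41 Gpc4 counts, against 58, 81 and 75 counts in lymph node libraries 1, 2 and 3. On the CPM scale these were 74.9, 82.2 and 110.2 in muscle and 33.1, 34.8 and 34.1 in lymph node. Every muscle library lay above every lymph node library, as in 9.93% of all tested genes, and the lymph node libraries lay within 2 CPM of each other. The mean was 89.1 ± 18.6 CPM in muscle and 34.0 ± 0.846 in lymph node (± SD, n = 3 each), a log2 fold change of 1.35 ± 0.22 (SE) or 2.55-fold (edgeR adjusted p = 0.00922). Without muscle 4 it was 1.19 ± 0.18 (edgeR adjusted p = 3.35e-04), a 2.29-fold difference. The adjusted p passed 0.05 when any of the lymph node libraries was left out, at 0.0650, 0.0842 and 0.0806 without library 1, 2 and 3 (edgeR), where 1.74%, 1.25% and 1.41% of all tested genes were called. The log2 fold change was then 1.32, 1.35 and 1.34, and over 18 alternatives it ran from 1.16 to 1.45, with adjusted p from 1.40e-04 to 0.0842.

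Gpc3 lies next to Gpc4 on the X chromosome and did not pass the test. Gpc3 encodes a glypican that restrains growth in the embryo and binds hedgehog proteins. It had 205, 264 and 280 (muscle 4) CPM in muscle, against 211, 279 and 322 CPM in lymph node. The ranges of the tissues overlapped almost fully. The mean was 249 ± 39.2 CPM in muscle and 271 ± 56.1 in lymph node (± SD, n = 3 each), a log2 fold change of -0.13 ± 0.22 (edgeR adjusted p = 0.859), and -0.22 ± 0.18 (edgeR adjusted p = 0.531) without muscle 4.

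In the GRCm38 assembly, which is also called mm10, Gpc4 spans chrX:52053021-52165252 and Gpc3 spans chrX:52272426-52613950, both on the minus strand (GENCODE M21). They are 107.2 kb apart and 0 annotated genes lie between them. Their promoters are shown because these genes are neighbours with the same orientation and one of them was called. Each is 300 bases of RefSeq sequence (GRCm38.p6), from 250 bases before to 50 bases after the start annotated by RefSeq, at chrX:52164874-52165173 for Gpc4 and chrX:52613925-52614224 for Gpc3, printed on the minus strand with motif matches in capitals. RefSeq places the start of Gpc4 inside the GENCODE gene, so the whole Gpc4 window lies within the GENCODE span, downstream of the GENCODE start.
Gpc4 promoter: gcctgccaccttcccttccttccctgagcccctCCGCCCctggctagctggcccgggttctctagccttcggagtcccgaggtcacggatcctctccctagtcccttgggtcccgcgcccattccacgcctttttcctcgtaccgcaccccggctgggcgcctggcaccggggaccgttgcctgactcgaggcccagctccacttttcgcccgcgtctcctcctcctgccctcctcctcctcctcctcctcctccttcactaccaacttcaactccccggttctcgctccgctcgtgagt
Gpc3 promoter: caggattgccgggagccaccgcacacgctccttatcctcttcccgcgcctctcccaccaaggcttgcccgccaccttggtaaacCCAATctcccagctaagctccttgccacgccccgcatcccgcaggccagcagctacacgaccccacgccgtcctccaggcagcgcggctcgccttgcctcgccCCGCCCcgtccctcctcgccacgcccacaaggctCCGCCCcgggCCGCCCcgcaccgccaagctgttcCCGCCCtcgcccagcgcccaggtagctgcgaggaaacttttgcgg
Both are rich in G and C, with 66.7% in Gpc4 and 70.7% in Gpc3, and hold 22 CpG in Gpc4 and 30 CpG in Gpc3. A search on both strands for the GC box (GGGCGG), the CCAAT box (CCAAT), the TATA box (TATAAA), the AP-1 site (TGANTCA) and the NF-kB site found 1 GC box in Gpc4. In Gpc3 it found 4 GC boxes and 1 CCAAT box, with no overlap between matches. Of 32851 promoters of the same length, 35.7% held a GC box, 37.4% a CCAAT box, 13.6% a TATA box, 7.8% an AP-1 site and 4.5% an NF-kB site. RefSeq promoters were found for 6 of the 9 genes, those of Gpc2, Gpc3, Gpc4, Sdc1, Sdc3 and Sdc4.

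Gpc6, a close relative of Gpc4 whose human counterpart is mutated in a short-limb skeletal dysplasia, did not pass the test. It had 122, 132 and 132 CPM in muscle, against 151, 134 and 145 CPM in lymph node. Every muscle library lay below every lymph node library, but lymph node 2 came within 3 CPM of muscle 3. Non-overlapping tissues were found in 23.6% of all tested genes, with muscle below lymph node in 13.7%. The mean was 129 ± 5.83 CPM in muscle and 144 ± 8.50 in lymph node (± SD, n = 3 each), a log2 fold change of -0.16 ± 0.18 (edgeR adjusted p = 0.755), and -0.19 ± 0.15 (edgeR adjusted p = 0.511) without muscle 4. Gpc6 lies at chr14:116925315-117976544, a span of 1051230 bases.

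Gpc1 and Gpc2 were near the limit of detection. Gpc1, a glypican of nerve, muscle and vessel cells, had 10, 2 and 0 counts in muscle, against 12, 4 and 7 counts in lymph node. A count of 0 in muscle 4 allows up to 3 counts, or 8.06 CPM, which is above every other library. The ratio of scaled sums, muscle over lymph node, was 0.917 with an exact 95% counting interval of 0.416 to 1.92, so a difference was not detectable at this depth. Without muscle 4 the ratio was 1.02 (0.464 to 2.14), and the log2 fold change was -0.05 ± 0.75 (edgeR adjusted p = 0.981). Gpc2, a glypican of developing neurons, had 1 count in each muscle library, against 1, 0 and 2 counts in lymph node, and its ratio of 1.76 had an interval of 0.235 to 13.1; without muscle 4 the ratio was 1.31 (0.109 to 11.4). Reads of both genes are also uncertain in origin, since 18.5% of the 25-base words of Gpc1 and 52.8% of those of Gpc2 also occur in transcripts of other genes. Ankmy1 shares such words with Gpc1 and overlaps its exons, and Gm43720 does so for Gpc2. These intervals and floors cover counting error only. Gpc5, the remaining glypican gene of the mouse and not among the 9, had 0 counts in all muscle libraries and 4, 2 and 4 counts in lymph node libraries. The lymph node libraries together had 1.59 CPM, and a floor of 3 counts over the 3 muscle libraries together was 0.841 CPM. Their ratio of 1.90 leaves out the counting error of the lymph node counts, so it is not a lower bound.

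**Figure D2:**
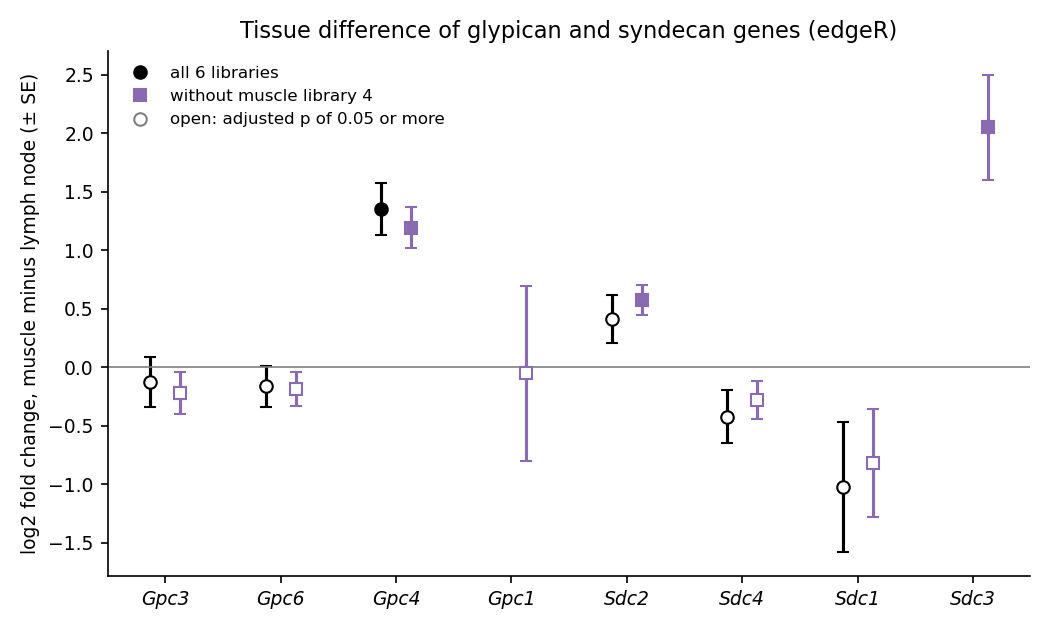
Log2 fold change (muscle minus lymph node, ± SE, edgeR) of each tested glypican and syndecan gene, with all 6 libraries (circles) and without muscle 4 (squares). Filled symbols have an adjusted p under 0.05. Gpc4 is filled in both fits, and Sdc2 and Sdc3 are filled without muscle 4.

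The 4 syndecans lie on different chromosomes, Sdc1 at chr12:8771323-8793715, Sdc2 at chr15:32920723-33034935, Sdc3 at chr4:130792537-130826319 and Sdc4 at chr2:164424247-164443887 (the last on the minus strand, the others on the plus strand; GRCm38), and have closely similar coding ends. Their last 108 coding bases before the stop codon (GRCm38, GENCODE M21, coding strand) are shown because libraries were read in stretches of 25 bases, and some stretches here do not tell one syndecan from another. The first capital run marks bases in 25-base words that occur in another syndecan, and the last 12 capitals encode the end of the tail, which binds PDZ domains of scaffold proteins such as syntenin.
Sdc1: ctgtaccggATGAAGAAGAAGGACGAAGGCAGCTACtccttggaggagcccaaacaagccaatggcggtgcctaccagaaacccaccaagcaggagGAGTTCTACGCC
Sdc2: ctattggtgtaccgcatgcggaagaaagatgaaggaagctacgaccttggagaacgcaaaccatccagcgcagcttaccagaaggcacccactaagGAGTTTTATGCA
Sdc3: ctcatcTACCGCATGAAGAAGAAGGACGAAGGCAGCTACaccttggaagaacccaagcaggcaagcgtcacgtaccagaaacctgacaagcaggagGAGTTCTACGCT
Sdc4: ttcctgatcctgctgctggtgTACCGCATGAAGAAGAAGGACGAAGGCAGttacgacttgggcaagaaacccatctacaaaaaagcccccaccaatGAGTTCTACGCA
The longest run of identical bases was 29 between Sdc3 and Sdc4, 27 between Sdc1 and Sdc3 and 23 between Sdc1 and Sdc4. Sdc2 shared no 25-base word with another syndecan here. Of the last 12 bases, 11 were the same in Sdc3 and Sdc4, and 9 in Sdc1 and Sdc2. The stretch is short, and 3.97% of the 25-base words of Sdc1, 3.74% of Sdc2, 6.89% of Sdc3 and 1.98% of Sdc4 occur in any other gene.

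Sdc2, long known as the syndecan of fibroblasts, was the syndecan with the highest CPM in both tissues. It had 466, 508 and 317 CPM in muscle, against 318, 333 and 326 CPM in lymph node. Muscle 2 and 3 were above all lymph node libraries, and muscle 4 was level with them. The mean was 430.3 ± 100.2 CPM in muscle and 326 ± 7.44 in lymph node (± SD, n = 3 each), and the log2 fold change of 0.41 ± 0.20 did not pass the test (edgeR adjusted p = 0.396). Without muscle 4 it was 0.57 ± 0.13 (edgeR adjusted p = 0.00813), or 1.49-fold. Over the 18 alternatives the adjusted p ran from 0.00438 to 0.762, and Sdc2 was called in 5 of them. Each of those 5 left out muscle 4, gave libraries weights, used a block by column number, or merged muscle 4 with a deeper library. In the block fit muscle 4 and lymph node 1 have no partner of the same number and add nothing to the tissue difference. The summed muscle fibre markers had the same order of libraries in muscle, with 64.9 and 77.6 CPM in muscle 2 and 3 and 8.06 CPM in muscle 4, against 8.57 to 14.6 CPM in lymph node, and their part in the Sdc2 values was not tested. In these 5 alternatives the share of all tested genes called was 12.4% without muscle 4, 12.6% with library weights, 14.1% with the block, and 12.1% and 11.3% with muscle 4 merged into library 2 and library 3.

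Sdc4, the syndecan of focal adhesions and a partner of protein kinase C alpha, was lower in muscle on average but did not pass the test. It had 161, 204 and 118 CPM in muscle, against 251, 211 (lymph node 2) and 196 CPM in lymph node. Muscle 3 lay above lymph node 3, so the tissues overlapped. The mean was 161 ± 42.7 CPM in muscle and 219 ± 28.4 in lymph node (± SD, n = 3 each), a log2 fold change of -0.42 ± 0.23 (edgeR adjusted p = 0.448), and -0.28 ± 0.16 (edgeR adjusted p = 0.343) without muscle 4.

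Sdc1, which marks epithelia and plasma cells under the name CD138, was low and varied within each tissue. It had 39, 9 and 2 counts in muscle, against 69, 58 and 29 counts in lymph node. In CPM these were 20.6, 6.92 and 5.38 in muscle and 39.4, 24.9 and 13.2 in lymph node. Muscle 2 lay above lymph node 3, so the tissues overlapped. The log2 fold change was -1.02 ± 0.55 (edgeR adjusted p = 0.451), and -0.82 ± 0.46 (edgeR adjusted p = 0.323) without muscle 4. Over the 18 alternatives it ran from -1.99 without muscle 2 to -0.49 with a block by column number, and the adjusted p ran from 0.192 to 0.813. The 7 listed plasma cell markers all had a count in at least 1 library, and their sums were 318, 251 and 535 CPM in muscle, against 322, 460 and 393 CPM in lymph node. Most of each sum was Xbp1, which other secretory cells also express. Jchain, a marker closer to plasma cells, had 0, 0.768 and 72.6 CPM in muscle, against 0.571, 1.72 and 36.9 CPM in lymph node, and Mzb1 had 0.527, 0.768 and 32.3 CPM in muscle, against 0.571, 0 and 0 CPM in lymph node. The part of these markers in the Sdc1 values was not tested.

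Sdc3, a syndecan of nerve and muscle precursor cells, had few counts in every library. There were 25, 24 and 2 counts in muscle, against 9, 8 and 6 counts in lymph node. In CPM these were 13.2, 18.4 and 5.38 in muscle and 5.14, 3.44 and 2.73 in lymph node. The 2 counts of muscle 4 placed it just above lymph node 1, and 1 count less would have placed it below. The filter on low counts left Sdc3 out of the test on all 6 libraries, and without muscle 4 it passed only through the muscle libraries. The ratio of scaled sums, muscle over lymph node, was 3.90 with an exact 95% counting interval of 2.34 to 6.68, which does not include the spread between libraries. Without muscle 4 the log2 fold change was 2.05 ± 0.45 (edgeR adjusted p = 0.00683), or 4.15-fold. With muscle 4 summed with muscle 2 or muscle 3 the edgeR adjusted p was 0.0120 and 0.0151. In the other settings in which Sdc3 could be tested, muscle 4 stayed a library of its own. Sdc3 was not called in any of these, with an edgeR adjusted p of 0.251 to 0.460. With no filter on all 6 libraries the log2 fold change was 1.67 ± 0.67 (edgeR adjusted p = 0.278). All 8 listed markers of muscle fibres had a count in at least 1 library. Their sums were 64.9, 77.6 and 8.06 CPM in muscle, against 8.57, 13.3 and 14.6 CPM in lymph node. Within muscle these sums had the same order of libraries as Sdc3, but within lymph node they rose where Sdc3 fell. Acta1, the actin of muscle fibres, had 35.3, 32.3 and 0 CPM in muscle, against 0, 0.430 and 0 CPM in lymph node. Tnnt3, Ckm, Tnni2 and Mb were also higher in muscle 2 and 3 than in any lymph node library, while Myh1, Myh2 and Myh4 were not. With all libraries 1 fibre marker could be tested, and it was not called. Without muscle 4 the 2 fibre markers that could be tested were both called higher in muscle by edgeR, where 12.4% of all tested genes were called. Acta1 could pass the low-count filter only through the muscle libraries, so these calls are no separate support. The part of these markers in the Sdc3 difference was not tested. Sdc3 and Sdc4 are also known from muscle satellite cells, the stem cells of muscle fibres. Of 7 satellite cell markers 6 had a count, with sums of 54.9, 50.7 and 91.4 CPM in muscle, against 182, 205 and 148 CPM in lymph node, most of it Vcam1, which stromal cells also express. The satellite cell gene Pax7 had 0, 1.54 and 0 CPM in muscle, against 0.571, 0 and 1.37 CPM in lymph node, and Myf5 had no count in any library. The use of strand in counting is not given in the sources used here, so reads of Gm12970 and Gm26716, which overlap Sdc3 exons, cannot be told apart from those of Sdc3.

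Levels of different genes were compared per length, as CPM per kb of exons. In muscle the order was Sdc2 (122 ± 28.4), Gpc3 (92.7 ± 14.6), Sdc4 (63.2 ± 16.8), Gpc4 (33.6 ± 7.03) and Gpc6 (20.01 ± 0.908), each a mean ± SD of CPM per kb over 3 libraries. The ranges of Sdc2 and Gpc3 overlapped in muscle, as did those of Gpc3 and Sdc4, whereas Sdc4, Gpc4 and Gpc6 were separate. In lymph node the order was Gpc3 (100.6 ± 20.8), Sdc2 (92.3 ± 2.11), Sdc4 (86.0 ± 11.2), Gpc6 (22.3 ± 1.32) and Gpc4 (12.8 ± 0.319), in the same unit. The first 3 of these overlapped, and Gpc6 and Gpc4 were separate. The other 4 genes averaged at most 2.88 CPM per kb in muscle and at most 6.78 CPM per kb in lymph node, in both tissues with Sdc1 the highest of them.

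By this length Gpc4 was above Gpc6 in every muscle library and below it in every lymph node library. As a share of the summed per-length level of the glypicans, Gpc4 made up 22.7%, 20.7% and 24.9% in muscle libraries 2, 3 and 4, against 10.8%, 9.50% and 8.26% in lymph node libraries 1, 2 and 3. Gpc3 had the largest share in both tissues, with a mean of 63.0% ± 2.11 in muscle and 73.2% ± 4.87 in lymph node (± SD, n = 3 each). Gpc6 had 13.7% ± 1.46 in muscle and 16.6% ± 3.21 in lymph node. With the longest transcript in place of all exons as the length, the muscle means came to 18.8% for Gpc4 and 17.6% for Gpc6. By that length Gpc4 had 28.3, 31.02 and 41.6 CPM per kb in muscle 2, 3 and 4 and Gpc6 had 29.4, 31.9 and 31.8, so the order of these genes in muscle 2 and 3 depends on the length used, while the tissue contrast of each gene does not. Among the syndecans, Sdc2 made up 64.3% ± 1.19 in muscle and 49.9% ± 4.26 in lymph node, and Sdc4 33.2% ± 1.91 in muscle and 46.2% ± 2.68 in lymph node. Muscle 4 did not stand apart in these shares: its Sdc2 share was 64.9%, against 65.1% and 62.9% in muscle 2 and 3.

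**Figure D3:**
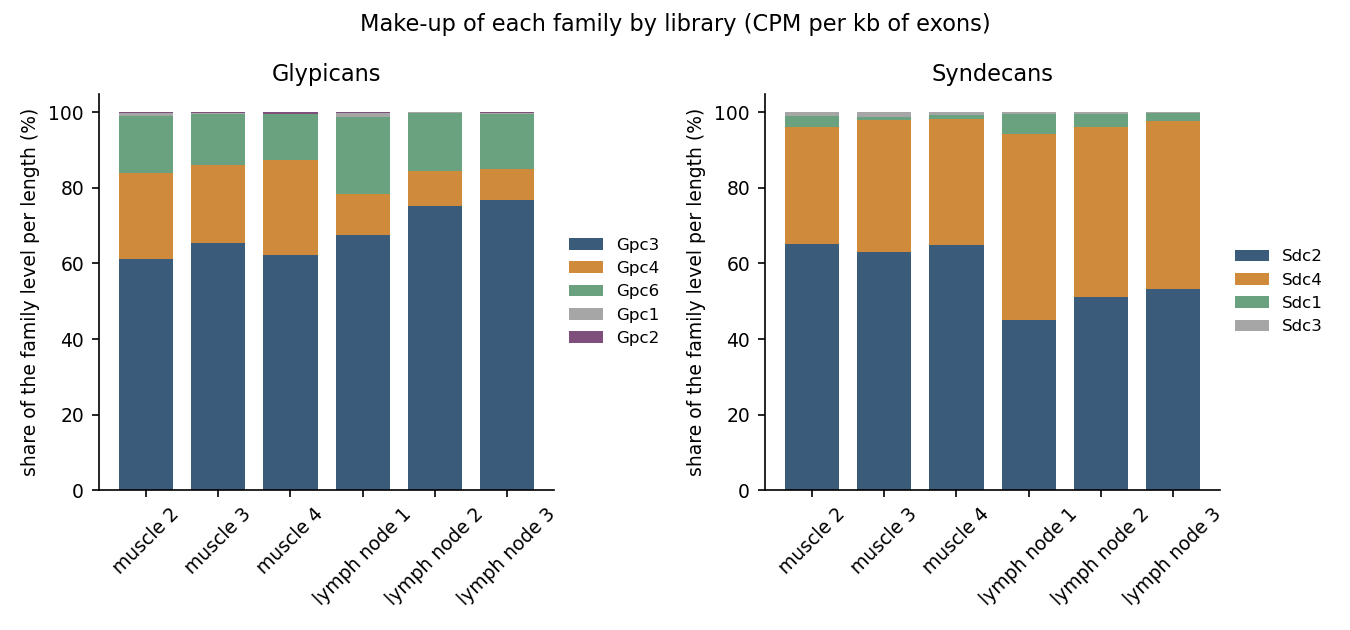
Share of each gene in the summed per-length level (CPM per kb of exons, percent) of the glypicans and of the syndecans, 1 bar a library. Gpc4 takes 20.7% to 24.9% of the glypican level in muscle and 8.26% to 10.8% in lymph node, and Sdc2 takes more of the syndecan level in muscle.

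Shares of counts within a pair of genes do not depend on library scaling. Gpc4 made up 26.7%, 23.8% and 28.3% of the counts of Gpc4 and Gpc3 in muscle, against 13.6%, 11.1% and 9.59% in lymph node. The shallowest library, muscle 4, had a 95% Wilson interval of 21.6% to 36.1%, which lay above that of every lymph node library (the highest bound was 17.2%). Gpc4 made up 40.7% ± 4.24 of the counts of Gpc4 and Gpc6 in muscle and 19.2% ± 1.31 in lymph node (± SD, n = 3 each). Sdc2 made up 74.3%, 71.4% and 72.8% of the counts of Sdc2 and Sdc4 in muscle, against 55.9%, 61.3% and 62.4% in lymph node. Muscle 4 thus sat with muscle 2 and 3 in this share, although its Sdc2 level did not. The tissues did not overlap in any of the 3 shares. A two-sided exact permutation test over libraries gave p = 0.1 for each (0.1 after Benjamini-Hochberg adjustment over 3 shares), which is the smallest p that 3 libraries against 3 can give. The pairs were chosen after the counts were seen, so their separation and these p-values are no separate evidence. How often other gene pairs separate the tissues was not counted.

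**Figure D4:**
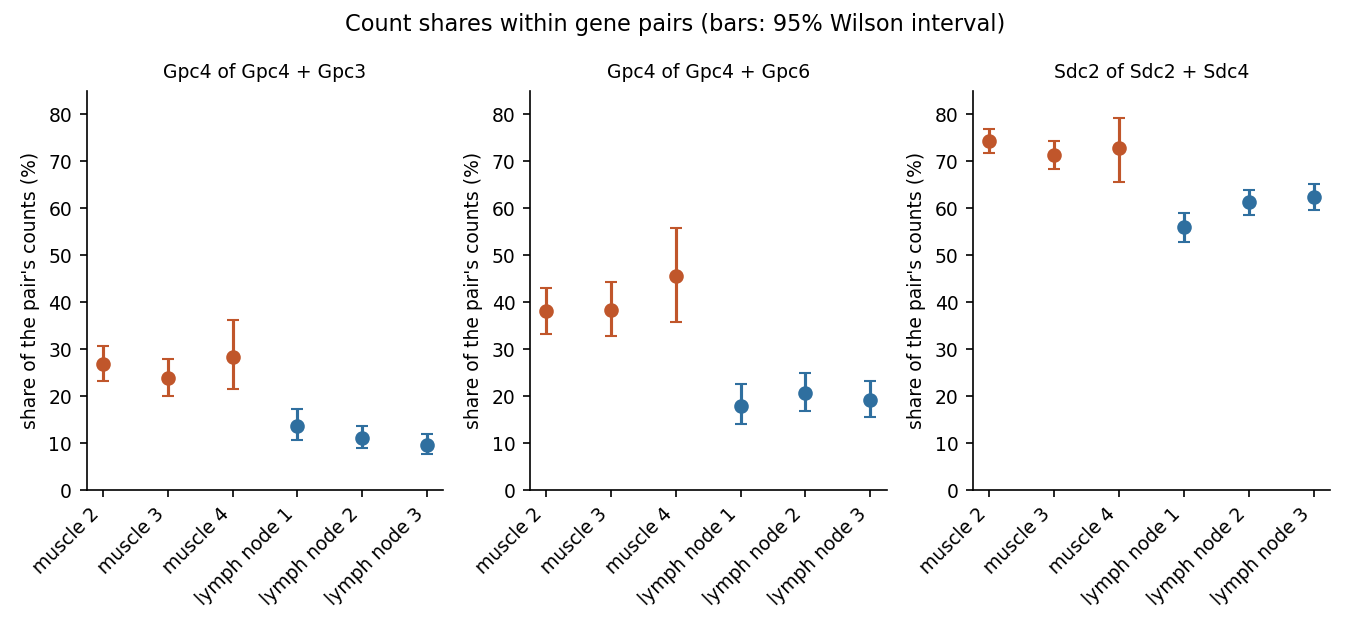
Share of the first gene in the counts of a gene pair (percent, with 95% Wilson intervals for counting error) in each library. In each pair all muscle libraries lie above all lymph node libraries.

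By likeness of profile, the 3 tested genes closest to Gpc4 over the 6 libraries were Lyrm1, Scarf2 and Spry1. The root mean square difference of their centred log2 CPM from that of Gpc4 was 0.13 for Lyrm1, 0.14 for Scarf2 and 0.15 for Spry1. Spry1, an inhibitor of growth factor signalling, had 64.9, 55.3 and 91.4 CPM in muscle, against 29.7, 28.8 and 24.1 CPM in lymph node (log2 fold change 1.31 ± 0.25, edgeR adjusted p = 0.0190). Lyrm1 and Scarf2 did not pass the test (edgeR adjusted p = 0.173 for Lyrm1 and 0.0802 for Scarf2). The 3 genes were picked for likeness to Gpc4 in these same libraries, so a tissue difference like that of Gpc4 follows from the choice.

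The wider heparan sulphate pathway was described over 122 genes in 10 lists, of which 96 were tested. Of these, 5 were called higher in muscle and 9 lower, where 1.46% of all tested genes were called higher and 2.86% lower. The median log2 fold change was -0.14 over the pathway genes and 0.02 over all tested genes. Without muscle 4, 98 were tested, and 9 were called higher and 20 lower, where 4.79% of all tested genes were called higher and 7.58% lower.

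The enzymes that build the chains gave no call with all libraries. These were the 7 tested enzymes of the linker to the protein, such as the xylosyltransferases Xylt1 and Xylt2, the 4 tested of 5 polymerising genes (Ext1 and its relatives), and the 7 tested of 16 sulphating and epimerising enzymes (Ndst1 and its relatives). Their median log2 fold changes were 0.07 for the linker, -0.20 for polymerisation and 0.18 for sulphation, and none was called without muscle 4 either. Among 8 genes of precursor supply, Ugp2, which makes UDP-glucose, was higher in muscle, with 279 ± 37.4 CPM in muscle and 151 ± 4.10 in lymph node (mean ± SD, n = 3 each; log2 fold change 0.89 ± 0.18, edgeR adjusted p = 0.0230). Ugdh, which turns UDP-glucose into the glucuronic acid donor, was lower, with 436 ± 185 CPM in muscle and 1083 ± 104 in lymph node (log2 fold change -1.29 ± 0.31, edgeR adjusted p = 0.0497).

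Of the 11 genes that edit or degrade the chains, 10 were tested and none was called with all libraries, with a median log2 fold change of -0.71. Without muscle 4, 2 were called higher, the sulphatase Sulf1 (0.70) and the lysosomal sulphatase Ids (0.62), and 4 lower, heparanase Hpse (-1.35), Idua (-0.91), Naglu (-0.75) and Gusb (-0.75), as edgeR log2 fold changes. Chondroitin sulphate is the other chain that syndecans can carry, and 13 of its 16 listed enzymes were tested. The sulphotransferase Chst7 was higher, with 36.6 ± 1.17 CPM in muscle and 12.7 ± 2.45 in lymph node (log2 fold change 1.53 ± 0.30, edgeR adjusted p = 0.0197). The sulphotransferase Chst15 was lower, with 13.2 ± 6.97 CPM in muscle and 45.1 ± 8.86 in lymph node (log2 fold change -1.88 ± 0.41, edgeR adjusted p = 0.0341).

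**Figure D5:**
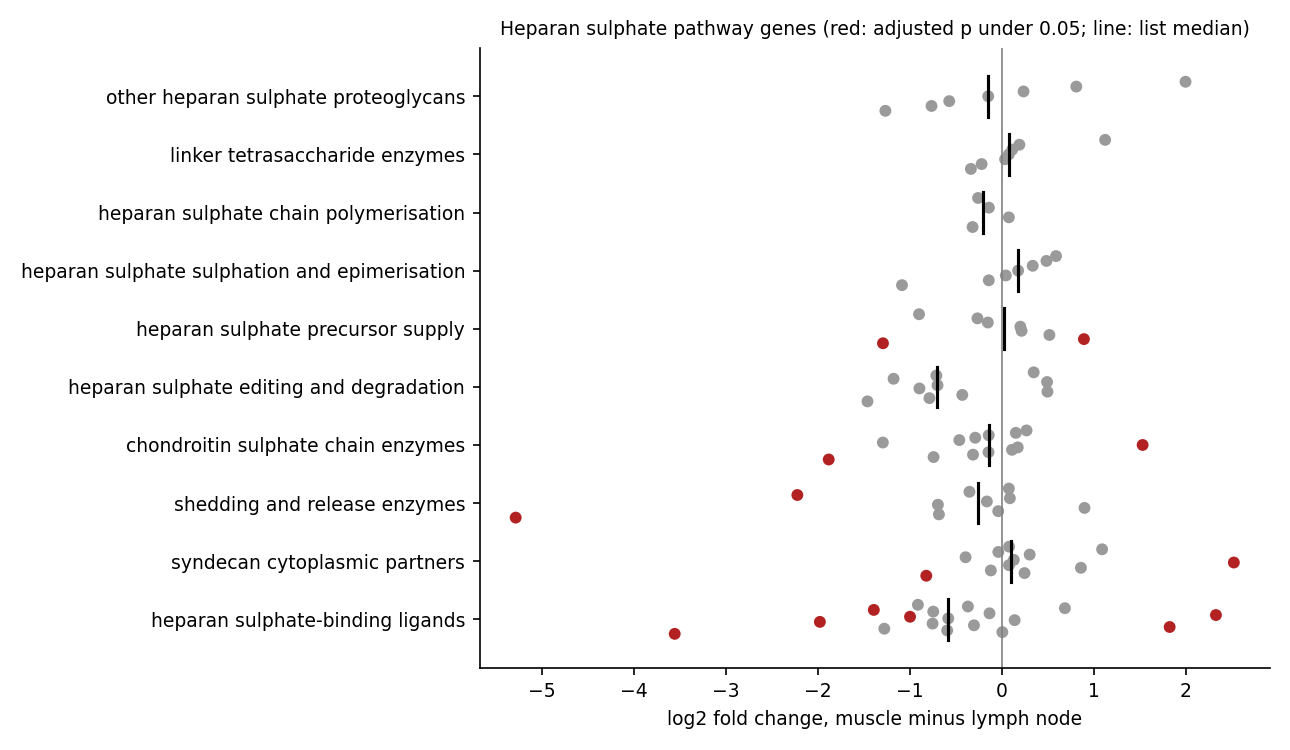
Log2 fold change (muscle minus lymph node, edgeR) of the 96 tested genes of the heparan sulphate pathway, by list. Red points have an adjusted p under 0.05 and vertical bars are list medians. The point farthest to the left is Mmp3 at -5.29, and the lists of linker, polymerising and sulphating enzymes hold no red point.

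Proteases that can release syndecans from the surface included the largest difference of the pathway. Mmp3, a stromelysin, had 35.3, 35.3 and 13.4 CPM in muscle, against 1629, 1084 and 889 CPM in lymph node (log2 fold change -5.29 ± 0.36, edgeR adjusted p = 2.00e-04). Adamts1 had 255, 247 and 83.3 CPM in muscle, against 1020.4, 846 and 951 CPM in lymph node (log2 fold change -2.22 ± 0.35, edgeR adjusted p = 0.00755). The 8 other tested genes of the list of shedding and release enzymes did not pass the test. They include the proteases Adam10, Adam17 and Mmp14, but also Gpld1 and Timp3, which are not proteases. The immediate early genes given above were lower in the same libraries, and their part in these differences was not tested. Notum, which is also on the list of shedding and release enzymes, had no count in any library.

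Of 12 tested partners of the syndecan tail, 2 were called. Ezr, encoding ezrin, which links membrane proteins to actin, was higher, with 39.0 ± 22.3 CPM in muscle and 6.06 ± 1.87 in lymph node (log2 fold change 2.52 ± 0.48, edgeR adjusted p = 0.0177). Sdcbp, encoding syntenin, was lower, with 310.2 ± 45.3 CPM in muscle and 552 ± 76.0 in lymph node (log2 fold change -0.82 ± 0.19, edgeR adjusted p = 0.0461).

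Ligands that bind heparan sulphate had 18 tested genes, with 2 called higher and 4 lower and a median log2 fold change of -0.59. The growth factor Fgf10 had 22.2 ± 15.8 CPM in muscle and 212 ± 33.3 in lymph node (log2 fold change -3.56 ± 0.40, edgeR adjusted p = 0.00131). Lpl, a lipase that rests on heparan sulphate, had 514 ± 126 CPM in muscle and 2039 ± 151 in lymph node (log2 fold change -1.98 ± 0.22, edgeR adjusted p = 0.00136). The chemokine Cxcl12 had 365 ± 35.7 CPM in muscle and 955 ± 27.4 in lymph node (log2 fold change -1.39 ± 0.17, edgeR adjusted p = 0.00205). In the opposite direction, the morphogen Bmp4 had 57.3 ± 12.6 CPM in muscle and 16.4 ± 4.61 in lymph node (log2 fold change 1.82 ± 0.30, edgeR adjusted p = 0.00856). Of the 12 pathway genes named with a call, 4 (Mmp3, Fgf10, Lpl and Cxcl12) were called without each of the 6 libraries in turn. The other 8 lost the call without at least 2 of the lymph node libraries and were called without muscle 4. Chst7, Ugp2, Chst15, Sdcbp and Ugdh also lost it without muscle 2 and without muscle 3, and Bmp4 and Ezr without muscle 3. The highest adjusted p was 0.0556 for Adamts1, 0.0842 for Bmp4 and 0.216 for Sdcbp (edgeR).

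Of the other proteoglycans that carry heparan sulphate, 7 of 8 were tested and none was called with all libraries. Perlecan (Hspg2), a basement membrane component, had 2677 ± 555 CPM in muscle and 2277 ± 270.2 in lymph node (log2 fold change 0.23, edgeR adjusted p = 0.687). Without muscle 4, Cd44 was called higher (log2 fold change 0.65, edgeR adjusted p = 0.0241) and Agrn lower (-1.01, edgeR adjusted p = 0.0267).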

How the data were processed

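The deposited table holds raw counts per gene symbol for 6 libraries, 3 muscle and 3 lymph node, made by the authors with no normalization. Per the labels' protocols, RNA of 1000 sorted cells was copied from an oligo(dT) primer, amplified by PCR, cut by a transposase and read as pairs of 25 bases; no molecular identifiers are described, so intervals cover counting error only. Per the submitters' processing notes, STAR 2.5.4 and featureCounts were used with mm10. Not given in the sources used here are the annotation release, the use of strand and the handling of reads with several alignments. Lymph node columns match sample titles. Muscle columns 2, 3 and 4 are numbered differently from the muscle titles, so they were used as 3 muscle libraries with no link to single samples.

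Counts were tested with edgeR 4.0.16 in R 4.3.3 over all 6 libraries on tissue alone: filterByExpr (10823 genes), TMM scaling, the two-sided quasi-likelihood F test and Benjamini-Hochberg adjustment over all tested genes, called under 0.05. The biological coefficient of variation was 0.265. CPM values use the TMM library size. Alternatives were other scalings, no filter, a stricter filter (10 CPM in 3 libraries), DESeq2 1.42.0, limma-voom 3.58.1 with and without library weights, each library left out, pairs of muscle libraries summed, and a block by column number. Symbols were matched to GENCODE M21 (49365 of 52997, 93.1%). The share of 25-base words in other genes was taken from its transcripts. In simulated data made for this comparison of muscle with lymph node, with 10489 genes tested, edgeR recovered 93% of planted 4-fold and 22% of planted 2-fold changes, with 4 false calls. The changes were planted only in genes with a higher mean CPM than Gpc1, Gpc2, Sdc1 and Sdc3, so these shares do not cover those genes. Each gene had the same spread in all libraries, so the departure of muscle 4 from its group was not modelled.

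The members and lists were chosen with earlier results of these data known. Named were all 9 members, up to 4 called genes of each pathway list by smallest p, those needed for counts of 5 or fewer, and the 3 genes nearest in profile to the called glypican (and syndecan, of which there was none). Named outside this rule, as examples, were Gpc5, Hspg2, Adam10, Adam17, Mmp14, Notum, Xylt1, Xylt2, Ext1, Ndst1 and single marker genes.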

Additional observations from a re-analysis of the deposited data

How the results depend on the processing

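No tested glypican or syndecan gene changed direction under any of the 18 alternatives. The number of these genes called higher in muscle was 1 with all libraries, 2 with limma-voom library weights, 3 with muscle 2 and 4 summed, 3 with muscle 3 and 4 summed, and 0 to 3 when each library was left out; none was called lower in any of them. By edgeR, 0 were called without any one lymph node library, and 3 without muscle 4. Of those 3, Sdc3 passed the low-count filter only through the muscle libraries. Over all genes, 158 were called higher in muscle with all libraries, against 419 with no filter, 260 with DESeq2, 552 with library weights, 55, 563 and 494 with muscle 2 and 3, 2 and 4, or 3 and 4 summed, and 28 to 539 with a library left out. The genes called lower numbered 310 with all libraries, 526 with no filter, 814 with library weights, 167, 872 and 772 with the same sums, and 114 to 852 with a library left out. With no filter, the median log2 fold change of the main set of tested genes was -0.14, and with total-count scaling 0.10, against 0.02. The cause of these shifts was not tested.

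With a replicate block by column number, 2 glypican and syndecan genes were called higher (Gpc4 and Sdc2), 627 of all genes were called higher and 903 lower. Muscle 4 and lymph node 1 have no partner of the same number, so this fit in effect compared muscle 2 and 3 with lymph node 2 and 3. The numbers are not shown to pair libraries: deviations from the tissue mean had a correlation of -0.03 for number 2 and 0.02 for number 3. Depth limits Gpc1, Gpc2, Sdc1 and Sdc3 most, since 3 counts in muscle 4 correspond to 8.06 CPM.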
